A study of Drosophila melanogaster with 50 samples.

Results

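Antimicrobial peptides are small proteins with which the fly attacks bacteria and fungi. The genes analysed here, listed under that name, are AttD, DptB, edin, Mtk and Drs. Each was read on every array of a study of adult flies kept under altered gravity. They belong to a list of 10 such genes, and a gene was measured where a probe set of the array carried its symbol and no other symbol in the platform annotation, the brightest one being taken where there were several. A single probe set met that condition for each of 5 of the 10, out of 11982 genes with such a probe set in the series. These were 1631475_at for AttD on chromosome arm 3R, 1638235_at for DptB and 1627613_at for Mtk on 2R, and 1635189_at for Drs and 1634366_at for edin on 3L. AttC, DptA, CecA1, CecC and Dro were not analysed here.

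The 50 samples were Oregon R adults, hybridised one sample to an array, and all values are log2 signals, so that a difference of 1 is a 2-fold change. In the random positioning machine (RPM), which keeps turning the sample so that it approaches 0g, 4 arrays of flies labelled males and 3 labelled females were at 0g, against 3 and 3 at 1g outside the machine, all 5 days old and at 14C. In the magnet, whose field levitates the flies, flies labelled females of 5 days were at 0g*, 1g* or 2g* inside the field at 14C (3 arrays each, the asterisk marking the field), with controls outside it at 24C (3 arrays) and at 14C (2 arrays), and a second set was exposed for 80 h at 0g* or 1g* and 14C (2 arrays each), with 3 arrays of outside controls at 24C. In the large diameter centrifuge (LDC), at 22C, flies labelled females of 20 and of 5 days were at 2g (4 arrays at each age), in a rotating 1g control (1g-rot, 2 arrays at each age) or at 1g outside (2 arrays at each age). The titles call the replicates biological, and how many flies went into a sample is not given in the sources used here.

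Array medians ran between 5.23 and 5.85, and the 95th percentile of the plant control probe sets, taken as the background of each array, between 3.86 and 4.49. On 6 arrays transcripts of both sexes were high. Among the RPM arrays labelled females these were replicates 2 and 3 at 0g and replicate 3 at 1g. Among those labelled males it was replicate 1 at 0g. In the magnet they were replicate 1 at 1g* and replicate 1 at 1g* for 80 h. In the RPM set the sex labels ran against the transcripts: the median of the accessory gland genes, made in males, was at most 6.80 on the arrays labelled males, against 11.03 or more on those labelled females, and that of the yolk proteins, made in females, was at least 13.67 on the arrays labelled males, against at most 12.99 on those labelled females. The words "labelled males" and "labelled females" are kept for that reason. An array titled as an outside control at 24C carries 14C among its characteristics and was kept in the 24C group. In extracts of adult flies, fewer cells of a type and less RNA per cell cannot be told apart.

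As background, the fat body and the barrier epithelia of the fly make these peptides when receptors of the peptidoglycan recognition protein (PGRP) family meet bacterial cell wall or when the Toll receptor is activated. The IMD pathway runs from PGRP receptors through the adaptor Imd and a kinase complex to the NF-kB factor Relish, and the diptericins and attacins are its classical targets. The Toll pathway runs through the cytokine Spätzle to Dorsal and Dif, and its classical target is the antifungal peptide Drosomycin, encoded by Drs. Mtk encodes metchnikowin, a proline-rich peptide that both pathways can induce, and edin encodes a short peptide that rises after bacterial infection.

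AttD, DptB and edin were low on most arrays of 5-day flies, with a few high arrays in some groups. Mtk was less low there, with a median of 8.16 on the 42 arrays that were not of 20 d. These 4 genes were high on every array of 20-day flies, whereas Drs was high everywhere. AttD, an attacin, had a median of 11.6 on the 8 arrays of 20 d (range 10.58 to 12.40) and of 3.94 on the other 42 (3.47 to 9.98), of which 35 were at or below background. DptB, a diptericin, had a median of 13.2 on the 20 d arrays (12.79 to 13.86) and of 6.65 on the other 42 (6.14 to 11.96). Both genes were thus higher on the lowest 20 d array than on any other array of the series, and the same held for edin and Mtk. For edin, the range was 11.68 to 13.17 on the 20 d arrays and 4.87 to 11.06 on the other 42. Mtk ran between 13.45 and 14.16 on the 20 d arrays and between 4.99 and 13.18 on the other 42. Drs stayed between 10.84 and 13.46 on all 50 arrays.

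**Figure D1:**
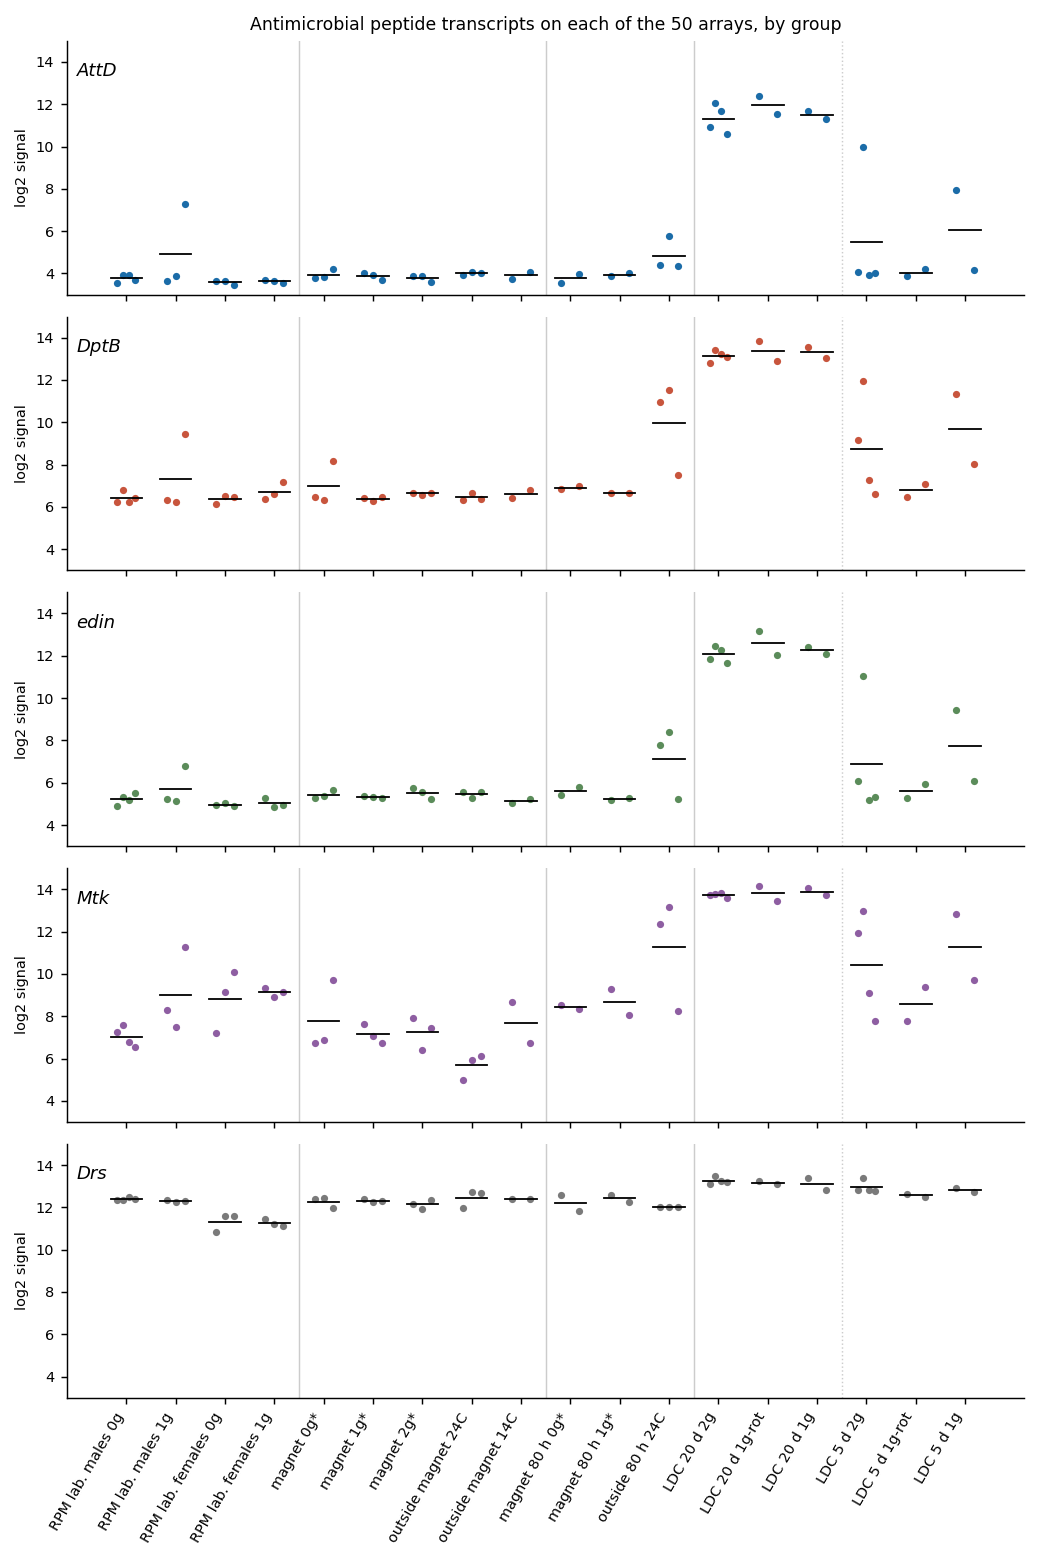
Log2 signal (vertical axes, same scale in every panel) of the 5 genes in the 18 groups (horizontal axis); each point is an array and each bar the mean of its group, and the dotted line parts the 20 d from the 5 d centrifuge groups. The 3 groups of 20 d stand on top in every panel, for AttD with means of 11.30 to 11.96, while Drs lies between 10.84 and 13.46 throughout.

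When the 18 groups were ordered by their mean, the 3 groups of 20 d held the first 3 places for each gene, and the ranges of neighbours among those 3 overlapped. Below them the order broke for AttD, DptB, edin and Mtk: the lowest of the 3 had means of 11.30, 13.13, 12.08 and 13.73, and the next group had 6.06 (AttD, LDC 5 d 1g), 9.99 (DptB, outside the magnet for 80 h), 7.74 (edin, LDC 5 d 1g) and 11.27 (Mtk, outside the magnet for 80 h), with ranges that did not overlap. For Drs the lowest 20 d group (13.10) and the next group (LDC 5 d 2g, 12.96) overlapped. Among the remaining groups, neighbours with ranges that did not overlap were few. For AttD the controls outside the magnet for 80 h (mean 4.84) stood above LDC 5 d 1g-rot (4.04), for Mtk the RPM labelled males at 0g (7.04) above the outside controls at 24C (5.68), and for Drs LDC 5 d 1g (12.81) above LDC 5 d 1g-rot (12.57) and the outside controls of 80 h (12.04) above the RPM labelled females at 0g (11.33). All other neighbours in the orders overlapped.

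The comparison of 20-day with 5-day flies was made separately at 2g, 1g-rot and 1g in the centrifuge, and most of the calls among these genes came from it. At 2g, 4 of the 5 genes rose with age, with limma's moderated test and Benjamini-Hochberg adjustment over all 18769 probe sets at a threshold of 0.05, when 18.9% of all probe sets were called in either direction, 1877 of the 3539 being higher. The median difference of the 5 genes was 4.38, against -0.02 for all probe sets. At 1g-rot the same 4 genes rose (18.5% of all probe sets called, 8.22% called higher), and at 1g AttD alone passed the test (11.1% called, 4.98% called higher).

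AttD at 2g read 10.91, 12.04, 11.68 and 10.58 on the 20 d arrays, against 4.06, 9.98, 3.93 and 4.04 on the 5 d arrays. The groups did not overlap, and 3 of the 4 young arrays were at background. The difference was 5.80 (SE 1.09, limma adjusted p = 0.00116), and 7.29 without the second young array (adjusted p = 9.35e-07). Only arrays at background were then left at 5 d, so that 7.29 is a fitted value and not a bound. At 1g-rot AttD read 12.40 and 11.52 at 20 d, against 3.86 and 4.22 at 5 d, both young arrays being at background, so that only a bound can be given: at least 7.78 on the log2 scale (limma adjusted p = 0.00205), computed from the mean of the bright group and, on each dim array, the higher of its signal and its background. At 1g it read 11.68 and 11.29 at 20 d, against 7.95 and 4.16 at 5 d, a difference of 5.43 (SE 1.54, limma adjusted p = 0.0318). The groups did not overlap, and the fitted difference was 7.33 without the first 5 d array, which left at 5 d only the array at 4.16, at background. The call was lost without the second 5 d array (difference 3.54, adjusted p = 0.339) or without either 20 d array (adjusted p = 0.183 and 0.0971).

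DptB at 2g read 12.79, 13.41, 13.24 and 13.08 on the 20 d arrays, against 9.14, 11.96, 7.28 and 6.62 on the 5 d arrays. Every old array was above every young one, by 4.38 on average (SE 0.88, limma adjusted p = 0.0021), and by 5.45 without the second young array. At 1g-rot DptB read 13.86 and 12.88 at 20 d, against 6.49 and 7.08 at 5 d, a 96-fold difference (limma adjusted p = 0.00174). At 1g it read 13.54 and 13.06 at 20 d, against 11.32 and 8.04 at 5 d. The groups did not overlap there, and the difference of 3.62 (SE 1.25) did not pass the test (limma adjusted p = 0.0785). It passed under 4 of 12 alternatives, among them without the first 5 d array (5.26, adjusted p = 0.0346) and with the array letter as a term (adjusted p = 0.0463), over which the adjusted p ran from 0.0283 to 0.555.

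edin at 2g read 11.87, 12.47, 12.29 and 11.68 on the 20 d arrays, against 6.08, 11.06, 5.18 and 5.31 on the 5 d arrays, a difference of 5.17 (SE 1.00, limma adjusted p = 0.00155) that was 6.55 without the second young array. The second young array was the highest of its group for AttD, DptB, edin, Mtk and Drs alike. At 1g-rot edin read 13.17 and 12.04 at 20 d, against 5.26 and 5.94 at 5 d, a 128-fold difference (limma adjusted p = 0.00268). At 1g it read 12.43 and 12.07 at 20 d, against 9.42 and 6.07 at 5 d, and the 22.7-fold difference missed the threshold (limma adjusted p = 0.0531). It passed under 7 of 12 alternatives, among them without the first 5 d array (6.18, adjusted p = 0.0337) and with the array letter as a term (adjusted p = 0.0249), over which the adjusted p ran from 0.00263 to 0.437.

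Mtk at 2g read 13.72, 13.77, 13.82 and 13.60 on the 20 d arrays, against 11.94, 12.98, 9.08 and 7.77 on the 5 d arrays. The 20 d arrays lay within 0.22 of each other, whereas the 5 d arrays spread over 5.21. The difference was 3.29 (SE 0.89, limma adjusted p = 0.0167). It was 4.13 without the second 5 d array, and it missed the threshold without the third or the fourth 5 d array (adjusted p = 0.0562 and 0.0555). At 1g-rot it read 14.16 and 13.45 at 20 d, against 7.77 and 9.38 at 5 d, a difference of 5.23 (SE 1.26, limma adjusted p = 0.00849). Leaving out the first array of either age ended that call as well (adjusted p = 0.0881 without the 5 d array and 0.0772 without the 20 d array). At 1g, the values of 14.04 and 13.73 at 20 d, against 12.83 and 9.70 at 5 d, gave a difference of 2.62 that did not pass the test (limma adjusted p = 0.229).

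Drs differed by less than the other 4 genes. At 2g it read 13.09, 13.46, 13.23 and 13.20 on the 20 d arrays, against 12.83, 13.38, 12.82 and 12.79 on the 5 d arrays, and the groups overlapped through the second young array. The difference of 0.29 (95% interval -0.02 to 0.60) did not pass the test (limma adjusted p = 0.21). Without that young array it was 0.43 and did pass (adjusted p = 0.0321). At 1g-rot the 20 d arrays, at 13.23 and 13.09, were above the 5 d arrays, at 12.64 and 12.50, by 0.59 (SE 0.20, limma adjusted p = 0.0581), a difference that passed with an intensity trend in the variance model (adjusted p = 0.0338) or the array letter as a term (adjusted p = 0.0137). At 1g the difference was 0.30 (95% interval -0.14 to 0.73, limma adjusted p = 0.455).

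**Figure D2:**
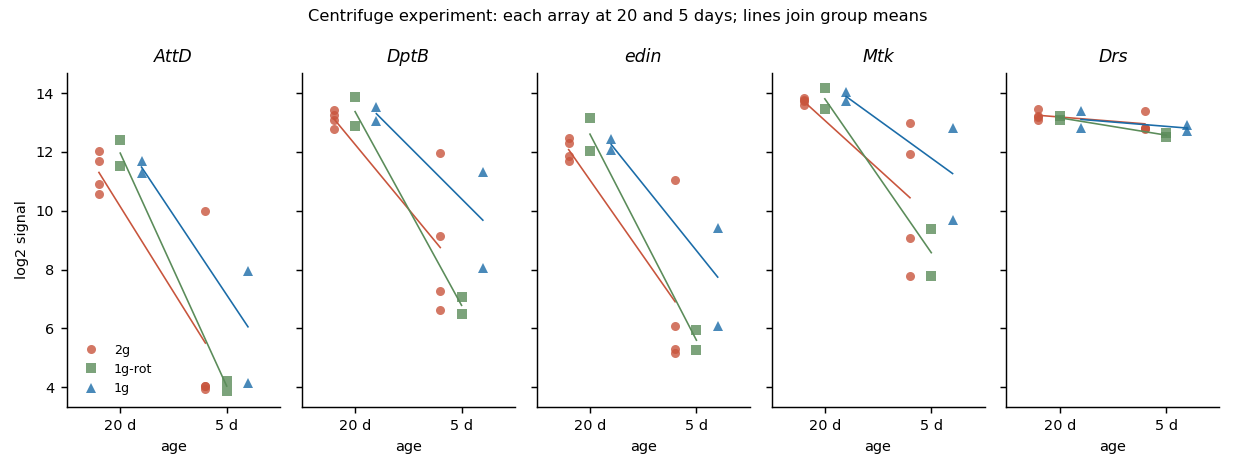
Log2 signal of each centrifuge array (vertical axis) at 20 and 5 days (horizontal axis), with a symbol for each of 2g, 1g-rot and 1g and lines that join group means. For AttD, DptB, edin and Mtk all 8 arrays of 20 d lie above all 8 arrays of 5 d, the closest approach being Mtk at 13.45 against 12.98; for Drs the ages overlap, at 12.82 to 13.46 against 12.50 to 13.38.

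Over all 3 conditions, the 8 arrays of 20 d lay above the 8 arrays of 5 d without overlap for 4 of the 5 genes, and 5.66% of all probe sets did the same (10.9% did not overlap in either direction). The array names of the 5 d and the 20 d samples belong to separate series, so the array set and the age cannot be told apart. The age difference did not depend detectably on 2g: the change of the difference between 2g and 1g was 0.37 for AttD (95% interval -3.63 to 4.37), 0.76 for DptB (-2.49 to 4.01), 0.66 for edin (-3.02 to 4.35), 0.67 for Mtk (-2.63 to 3.96) and -0.01 for Drs (-0.54 to 0.53). None of the 5 was called in this interaction or had an unadjusted p under 0.05 (limma; 0.0586% of all probe sets called). Without the first 5 d array at 1g the changes of AttD, DptB, edin and Mtk were below 0 (-1.53, -0.88, -1.01 and -0.90).

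Markers of tissues that make or surround these transcripts were read beside the age difference. Of the fat body markers, 0 of 12 were called higher and 3 lower at 2g (median difference -0.31), 3 lower at 1g-rot and 2 lower at 1g, and their median level on an array ran from 9.47 to 10.52 at 20 d, against 10.67 to 11.82 at 5 d. Of the hemocyte markers, 1 of 16 was called higher and 1 lower at 2g, with medians of 7.38 to 7.75 at 20 d, against 7.20 to 7.76 at 5 d. Of the gut markers, 5 of 19 were called higher and 7 lower at 2g, with medians of 10.51 to 11.00 at 20 d, against 10.16 to 11.07 at 5 d. Over all probe sets the share called in either direction was 18.9% at 2g, 18.5% at 1g-rot and 11.1% at 1g. The difference between the 3′ and 5′ probe sets of GAPDH, a sign of RNA quality, was 1.31 to 1.39 at 20 d and 1g-rot, against 1.64 to 1.68 at 5 d and 1g-rot. At 1g it overlapped between the ages, at 1.56 to 1.65 at 20 d, against 1.58 to 1.62 at 5 d. The same difference of eIF4a was 0.62 to 0.67 at 20 d and 1g-rot, against 1.06 to 1.20 at 5 d and 1g-rot, and 0.79 to 0.81 at 20 d and 1g, against 1.00 to 1.07 at 5 d and 1g. That of actin was likewise lower at 20 d, without overlap, at 1g-rot and at 1g, and at 2g all 3 overlapped between the ages. The fat body levels and, at 2g, single gut markers in both directions moved with age. So did all 3 signs of RNA quality at 1g-rot, and those of eIF4a and actin at 1g. Their part in the levels of the peptide genes was not tested.

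Other genes of the same response were taken from lists of the IMD pathway (21 genes measured), the Toll pathway (23) and further antimicrobial peptides (8). Over all probe sets 18.9% were called in either direction at 2g, 18.5% at 1g-rot and 11.1% at 1g. In the IMD list 10 genes rose with age in each condition, and 0 to 1 fell; the medians were 0.37 at 2g, 0.47 at 1g-rot and 0.39 at 1g, against -0.02 to 0.02 for all probe sets. The secreted recognition protein gene PGRP-SB1 rose by 3.67 at 2g (SE 0.65, limma adjusted p = 0.000769), 5.33 at 1g-rot and 4.05 at 1g. The NF-kB factor of the pathway, Rel, rose by 1.44 at 2g, 2.32 at 1g-rot and 1.76 at 1g. IKKgamma, a subunit of the kinase complex that acts on Relish, rose by 1.66, 1.48 and 1.59 in the same order. Charon, which encodes a nuclear ankyrin-repeat protein, rose by 2.60, 1.85 and 2.05. Genes known as brakes on the pathway rose as well: the amidase PGRP-LB by 1.94, 2.23 and 1.91, the amidase PGRP-SC2 by 1.48, 2.12 and 1.75, the membrane protein gene PGRP-LF by 1.52, 2.12 and 1.90, and pirk by 1.71, 2.32 and 1.84. For the receptor gene PGRP-LE the differences were 0.09, -0.22 and -0.21, for the kinase gene IKKbeta 0.03, -0.19 and -0.05, and for the caspase gene Dredd 0.33, 0.49 and 0.35, none of which passed the test.

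In the Toll list 5 genes rose and 3 fell at 2g, 6 rose and 3 fell at 1g-rot and 2 rose and 0 fell at 1g, with medians of 0.01, -0.07 and -0.05. Of all probe sets 18.9%, 18.5% and 11.1% were called in either direction, in the same order. The receptor gene Tl was lower by 0.68 at 2g (limma adjusted p = 0.00836) and by 1.36 at 1g-rot (limma adjusted p = 0.00091), and the ligand gene spz by 0.57 (limma adjusted p = 0.00117) and 0.59 (limma adjusted p = 0.012). The serine protease homologue gene sphe rose by 1.59, 1.52 and 1.47 at 2g, 1g-rot and 1g, and Hayan, a protease of the melanization and Toll cascades, by 1.20 at 2g and 2.41 at 1g-rot. The differences of the NF-kB gene Dif were -0.34, 0.14 and -0.06, and those of dl were -0.10, -0.24 and -0.18; none passed the test.

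Among the other peptides 6 of 8 rose at 2g, 4 at 1g-rot and 3 at 1g, and none fell, beside 18.9%, 18.5% and 11.1% of all probe sets called in either direction. Def, which encodes a defensin active against Gram-positive bacteria, rose by 2.97 at 2g (SE 0.48, limma adjusted p = 0.00033), 3.44 at 1g-rot and 3.08 at 1g. Def read 12.23, 12.34, 12.45 and 12.27 on the 20 d arrays at 2g, against 8.67, 11.40, 8.46 and 8.87 on the 5 d arrays, where the second array again stood highest. Listericin rose by 1.38, 1.58 and 1.30, and the cecropin gene CecB by 1.54 at 2g and 2.93 at 1g-rot, its 1.87 at 1g not passing the test (limma adjusted p = 0.0649). Of the bomanins, short peptides induced through Toll, BomT2 rose by 1.42, 1.63 and 1.05, BomS6 and BomBc2 passed at 2g alone (0.68 and 0.48), and BomS2 and BomS5 did not pass in any condition.

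**Figure D3:**
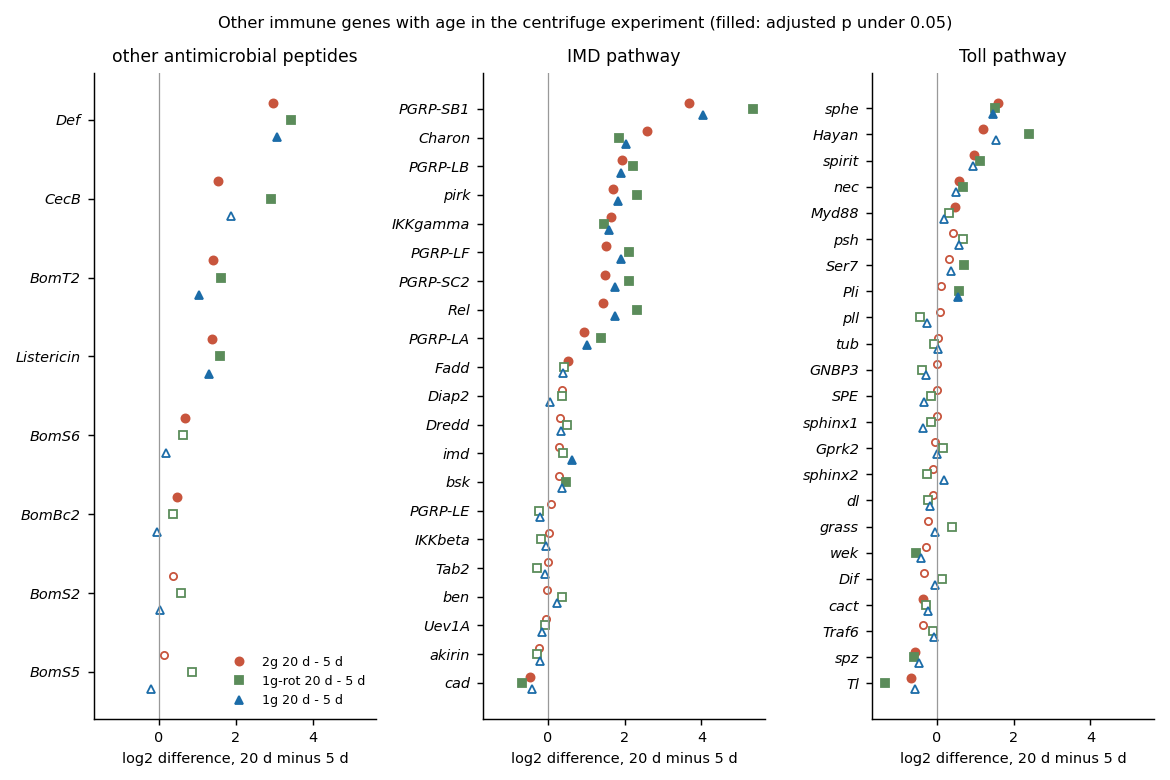
Log2 difference of 20-day minus 5-day flies (horizontal axes) for each measured gene (vertical axes) of 3 lists, with a symbol for each of 2g, 1g-rot and 1g; filled symbols passed an adjusted p of 0.05. In the IMD list 9 genes, from PGRP-SB1 to PGRP-LA, lie at 0.94 or above in every condition, while the Toll list is spread about 0, with a median of 0.01 at 2g.

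The 4 genes varied widely between arrays of a group, most of all in some groups of young flies. Within the groups, pooled over the 50 arrays, the SD of the log2 signal was 1.20 for AttD, 1.16 for DptB, 1.10 for edin and 1.39 for Mtk, against a median of 0.19 over all probe sets; only 27 probe sets had a larger SD than Mtk and 60 a larger one than edin. For Drs the SD was 0.24, above 75.9% of the probe sets. In the centrifuge the spread of the 4 genes lay with the young flies. For the 20 d groups the SD was 0.60 for AttD, 0.40 for DptB, 0.47 for edin and 0.26 for Mtk. For the 5 d groups it was 2.61 for AttD, 2.13 for DptB, 2.42 for edin and 2.19 for Mtk, and the SD of Drs was 0.22 at 20 d and 0.23 at 5 d. The magnet arrays, also of 5-day flies, differed from this. There the SD of AttD (0.17) and edin (0.18) was below the median of all probe sets (0.21), and that of DptB (0.51) and Mtk (1.05) above it. AttD was at background on 13 of these 14 arrays, so that its SD there is that of signals at background.

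The high young arrays were high for several of the genes together, but not every such array was high for AttD. The second 5 d array at 2g read 9.98 for AttD, 11.96 for DptB, 11.06 for edin and 12.98 for Mtk, and the first 5 d array at 1g read 7.95, 11.32, 9.42 and 12.83 for the same genes. The third array of RPM labelled males at 1g read 7.27, 9.44, 6.81 and 11.25, against at most 3.88, 6.33, 5.23 and 8.29 on the other 2 arrays of its group. The third magnet array at 0g* was high for DptB (8.17) and Mtk (9.73), with 4.20 for AttD and 5.65 for edin. DptB was at most 6.46 and Mtk at most 6.88 on the other 2 arrays of that group. The first 5 d array at 2g was high for DptB and Mtk, with AttD at background. The first and second arrays outside the magnet for 80 h read 10.96 and 11.52 for DptB and 12.37 and 13.18 for Mtk. For edin they read 7.79 and 8.41, and for AttD 4.42 and 5.75. Of these arrays, the second at 5 d and 2g had medians of 7.40 for the hemocyte, 10.87 for the fat body and 10.64 for the gut markers, each inside the range of the other 3 arrays of its group, and the highest IMD pathway median of the 4 (8.64). The first at 5 d and 1g had the highest fat body and gut medians of the 8 arrays of 5 d (11.82 and 11.07), and the third of the RPM labelled males at 1g had the lowest fat body median of its group (10.60) and the highest hemocyte, gut and IMD pathway medians (7.34, 10.11 and 8.78). The part of these tissues was not tested.

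Across the 50 deviations from the group means, Pearson's r was 0.92 between edin and AttD, 0.91 between edin and DptB, 0.88 between DptB and Mtk, 0.83 between DptB and AttD, 0.72 between edin and Mtk and 0.62 between AttD and Mtk. Drs had r of 0.22 to 0.31 with those 4. Over the 18 group means r was 0.89 to 0.99 among the 4 genes and 0.55 to 0.73 for Drs with them. The points share arrays and normalization and are few high arrays against many low ones, so that these values are descriptions.

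**Figure D4:**
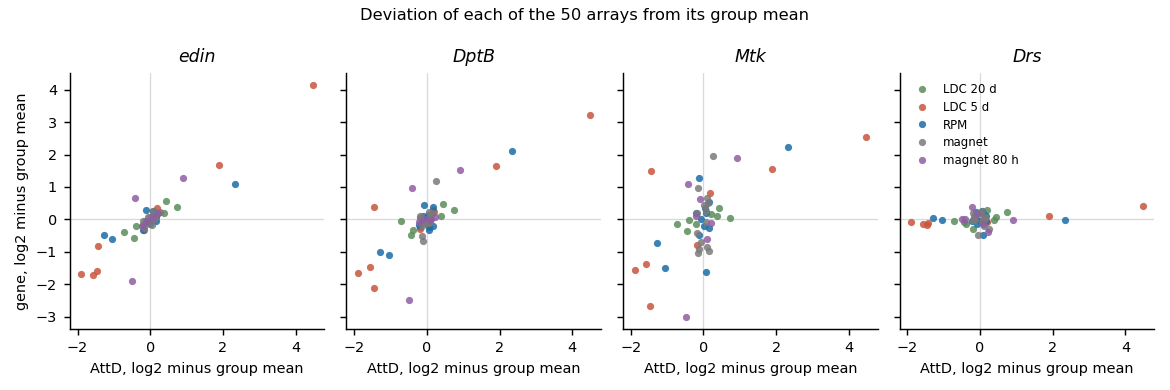
Deviation of each of the 50 arrays from its group mean, in log2 units, for AttD (horizontal axes) and for edin, DptB, Mtk and Drs (vertical axes), coloured by experiment and, for the centrifuge, by age. The 5 d centrifuge arrays span the panels of edin, DptB and Mtk, where r with AttD was 0.92, 0.83 and 0.62; in the panel of Drs, where r was 0.31, the points lie near 0.

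The genes whose pattern was most like that of the 5 genes, measured by Pearson's r with their mean standardized profile over the 18 group means, were Arpc3B (0.983), Nazo (0.977), CG34236 (0.975), CecB (0.973) and CG14495 (0.971). Nazo, for example, had group means of 11.17, 11.29 and 11.37 at 2g, 1g-rot and 1g at 20 d, against 7.50, 7.58 and 7.40 at 5 d. Over the 50 deviations from the group means, from which differences between groups are removed, the nearest genes were PGRP-SB1 (0.839) and CecB (0.806), followed by CG4269 (0.636), CG30026 (0.603) and CG5953 (0.601). PGRP-SB1 ran from 11.70 to 12.38 at 20 d and 2g, against 6.82 to 10.67 at 5 d and 2g.

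Hypergravity and rotation in the centrifuge were each compared at both ages. At 20 d none of the 5 genes was called in limma's test, and none had an unadjusted p under 0.05, between 2g and 1g (0.852% of all probe sets called), between 2g and 1g-rot (2.01%) or between 1g-rot and 1g (0.00533%). The differences of 2g against 1g were -0.18 for AttD (95% interval -3.01 to 2.65), -0.17 for DptB (-2.47 to 2.13), -0.17 for edin (-2.78 to 2.44), -0.16 for Mtk (-2.49 to 2.17) and 0.14 for Drs (-0.24 to 0.52). The intervals are set by one estimate of the spread over both ages.

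At 5 d none was called between 2g and 1g (0.0586% of all probe sets), between 2g and 1g-rot (0.165%) or between 1g-rot and 1g (0.0426%), and the number with an unadjusted p under 0.05 was 0, 1 and 2. The 1 was Drs, at 12.83, 13.38, 12.82 and 12.79 at 2g, against 12.64 and 12.50 at 1g-rot, without overlap, by 0.39 (SE 0.18, limma adjusted p = 0.662). The 2 were DptB, at 6.49 and 7.08 at 1g-rot, against 11.32 and 8.04 at 1g, and Mtk, at 7.77 and 9.38, against 12.83 and 9.70. These 1g-rot arrays were below both 1g arrays, with differences of -2.90 for DptB (SE 1.25, limma adjusted p = 0.739) and -2.69 for Mtk (SE 1.26, limma adjusted p = 0.764). The 3 comparisons share their groups.

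In the RPM, 0g was compared with 1g separately under each sex label. None of the 5 genes was called in limma's test of the labelled males (0.00533% of all probe sets called) or the labelled females (0% called), and 1 and 0 of them had an unadjusted p under 0.05. That gene was Mtk in the labelled males, at 7.25, 7.57, 6.78 and 6.55 at 0g, against 8.29, 7.50 and 11.25 at 1g. The groups overlapped, and the difference of -1.98 (SE 0.77, limma adjusted p = 0.781) was -0.86 without the third 1g array. In the labelled females Mtk read 7.19, 9.16 and 10.09 at 0g, against 9.32, 8.93 and 9.16 at 1g. The interaction of label and 0g called none of the 5 (0% of all probe sets called; 0 with an unadjusted p under 0.05).

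Between the sex labels at 1g, Drs was the 1 of 5 genes called (52.4% of all probe sets called in either direction, 29.8% called higher). It read 12.36, 12.27 and 12.28 on the arrays labelled males, where yolk protein transcripts were high, and 11.44, 11.21 and 11.12 on those labelled females. The groups did not overlap, and the difference was 1.05 (SE 0.17, limma adjusted p = 9.54e-05). At 0g Drs did not overlap between the labels either. It read 12.34, 12.34, 12.48 and 12.40 on arrays labelled males, against 10.84, 11.58 and 11.57 on those labelled females. Transcripts of both sexes were high on replicate 1 of these labelled males and on replicates 2 and 3 of these labelled females. At 1g they were high on replicate 3 of the labelled females. AttD was at background on all 3 arrays labelled females (3.70, 3.63 and 3.55) and read 3.65, 3.88 and 7.27 on those labelled males, so that a bound of at least 0.89 rests on 1 array (limma adjusted p = 0.121). The differences were 0.70 for edin (SE 0.34, limma adjusted p = 0.102), 0.62 for DptB (limma adjusted p = 0.456) and -0.12 for Mtk (limma adjusted p = 0.921). When each array was centred on its median, which raised every difference in this comparison by 0.37, AttD (1.67) and edin (1.07) were called too and Mtk came out at 0.24. Without the first or the second array labelled males, AttD, edin and Drs were called, Mtk being at 0.24 and 0.63, and without the third, DptB came out at -0.44.

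In the other immune lists, 2 of 8 peptides were called higher and 3 lower, 9 of 21 IMD genes higher and 2 lower, and 12 of 23 Toll genes higher and 8 lower. Of the peptides, Def was higher on the arrays labelled males by 2.36 (limma adjusted p = 4.83e-06) and CecB by 0.31 (limma adjusted p = 0.0494), and the bomanin genes BomS6, BomBc2 and BomT2 were lower by 1.01, 0.73 and 0.75. Of the fat body markers 4 of 12 were called higher and 3 lower, and of the hemocyte markers 8 of 16 higher and 2 lower, beside the 52.4% of all probe sets called. The fat body markers include the yolk protein genes Yp1, Yp2 and Yp3, by which sex was read above, so that their count is not one of tissue alone. The part of these tissues was not tested.

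In the magnet, none of the 5 genes was called by limma at 0g* against 1g* (0.0213% of all probe sets called), at 2g* against 1g* (0%) or at 0g* against 2g* (0%), and none had an unadjusted p under 0.05 there. Transcripts of both sexes were high on replicate 1 at 1g*, an array also used below against the outside controls. With an array left out, 0 to 2359 probe sets were called at 0g* against 1g*, and still none of the 5 genes. The share called there thus depends on single arrays. DptB at 0g* read 6.46, 6.32 and 8.17, against 6.41, 6.27 and 6.48 at 1g*, a difference of 0.60 (limma adjusted p = 0.327) that comes from the third array. Mtk at 0g* read 6.75, 6.88 and 9.73, against 7.65, 7.07 and 6.74 at 1g*, with the same array on top. AttD was at background on 13 of the 14 magnet arrays. Drs lay between 11.94 and 12.72 on all 14.

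Against the outside controls at 14C, none of the 5 was called at 0g* (0% of all probe sets called), 1g* (0.0266%) or 2g* (0%), with 0, 0 and 1 at an unadjusted p under 0.05. The 1 was edin, at 5.77, 5.54 and 5.25 at 2g*, against 5.04 and 5.25 outside (limma adjusted p = 0.999). Between the outside controls at 24C and at 14C none was called (0.480% of all probe sets), and Mtk had an unadjusted p under 0.05. Mtk read 4.99, 5.93 and 6.11 at 24C, the lowest levels of this gene in the series, against 8.66 and 6.71 at 14C, without overlap, a difference of -2.01 (SE 0.80, limma adjusted p = 0.556). The array at 4.99 is the one whose characteristics say 14C. With that array placed in the 14C group the groups overlapped and the difference was -0.77 (adjusted p = 0.934).

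After 80 h, the flies in the magnet had lower levels of DptB, Mtk and edin than 2 of the 3 outside controls. DptB read 6.85 and 6.98 at 0g* and 6.68 and 6.67 at 1g*, against 10.96, 11.52 and 7.49 outside. Mtk read 8.54 and 8.32 at 0g* and 9.29 and 8.06 at 1g*, against 12.37, 13.18 and 8.26 outside. The third outside array lay just above the magnet arrays for DptB and among them for Mtk. For edin the values were 5.40 and 5.80 at 0g* and 5.17 and 5.29 at 1g*, against 7.79, 8.41 and 5.23 outside, and AttD was at background inside the magnet (3.56 and 3.99 at 0g*, 3.86 and 4.04 at 1g*), against 4.42, 5.75 and 4.35 outside.

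None of the 5 genes passed limma's test at 0g* (0.927% of all probe sets called) or at 1g* (1.01%) against these controls. In each, 3 had an unadjusted p under 0.05: AttD, DptB and Mtk at 0g* and AttD, DptB and edin at 1g*. AttD, at background inside the magnet, did not overlap the outside arrays. It was lower by at least 0.59 at 0g* (limma adjusted p = 0.313) and 0.70 at 1g* (limma adjusted p = 0.321). The differences of DptB were -3.08 at 0g* (SE 0.94, adjusted p = 0.241) and -3.32 at 1g* (SE 0.94, adjusted p = 0.159), and those of Mtk -2.84 (SE 1.17, adjusted p = 0.409) and -2.60 (SE 1.17, adjusted p = 0.361). Without the third outside array, DptB, Mtk and edin were called in both comparisons, at -4.33, -4.35 and -2.50 for 0g* and -4.57, -4.10 and -2.87 for 1g*, with adjusted p between 0.000338 and 0.0137. The magnet flies were at 14C and these controls at 24C, so that the field and the temperature cannot be told apart. Both comparisons share the controls, and transcripts of both sexes were high on replicate 1 at 1g*. Between 0g* and 1g* after 80 h none was called (0.00533% of all probe sets; 0 with an unadjusted p under 0.05).

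Tissue markers were read in the same comparisons. The gut markers, such as the digestive proteases Jon25Bi and thetaTry, were called lower for 4 of 19 at 0g* and 6 of 19 at 1g*, and none higher, with median levels of 10.02 to 10.07 at 0g* and 9.99 to 10.10 at 1g*, against 10.75 to 11.29 outside. Of the fat body markers 0 of 12 were called lower at 0g* and 1 at 1g*, with medians of 9.71 to 10.57 at 0g* and 9.61 to 10.17 at 1g*, against 10.22 to 11.09 outside, so that the levels at 1g* did not overlap those outside. The bomanin genes BomS2 and BomBc2 were higher at 1g*, by 1.26 and 1.57 (limma adjusted p = 0.0485 and 0.0208). The 3′ minus 5′ difference of eIF4a was 2.43 to 2.58 at 0g* and 2.69 to 3.34 at 1g*, against 2.61 to 2.92 outside, overlapping the outside arrays at 1g* and lying just below them at 0g*, and all 7 arrays were above the centrifuge arrays (0.62 to 1.30). The part of these markers in the levels of DptB, Mtk and edin was not tested.

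**Figure D5:**
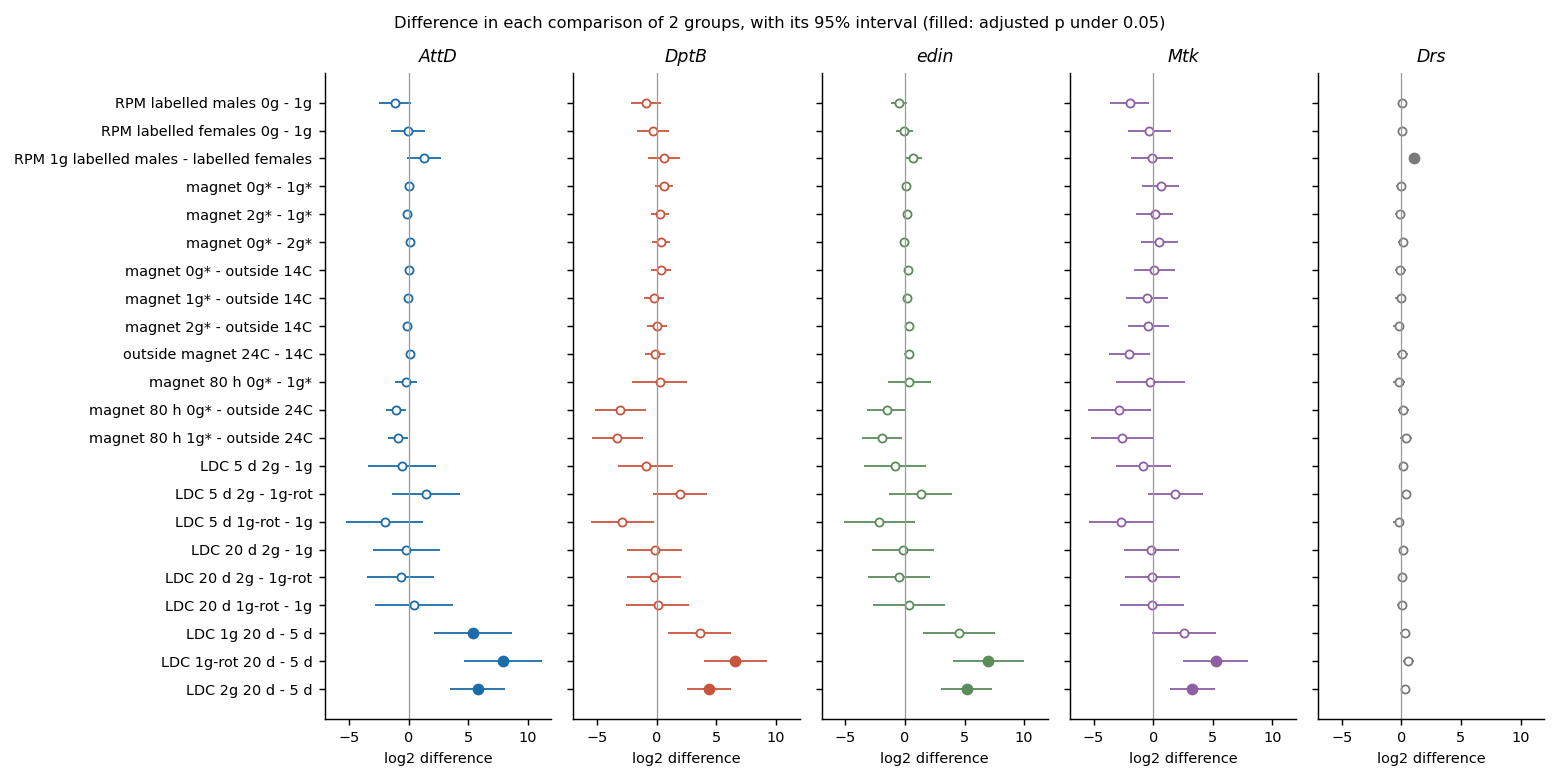
Log2 difference between the 2 groups of each comparison (rows), first group minus second, for the 5 genes, with its 95% interval from the moderated fit; filled points passed an adjusted p of 0.05. Filled points stand in the age comparisons (4 genes at 2g and at 1g-rot, where AttD is drawn at its fitted 7.92, and AttD at 1g) and for Drs between the sex labels at 1g, at 1.05.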

How the data were processed

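Total RNA of 50 adult samples was hybridised to Affymetrix Drosophila arrays. The deposited log2 values had been normalized by the authors with RMA, per the labels; no version is named, and no methods text for these samples was used. Of 18952 rows, 183 control probe sets were left out and 18769 were tested; 13647 carry a single symbol in the platform annotation, 402 several and 4720 none. Chromosome arms come from RefSeq. Group means were fitted with limma 3.58.1 in R 4.3.3, once per experiment (RPM, magnet, magnet 80 h, LDC), in 24 comparisons, and p-values were Benjamini-Hochberg adjusted over all probe sets with a threshold of 0.05; the fit was tested on simulated data. Background was set per array from 50 plant controls. Genes were named if they were members, belonged to a list, or were nearest in pattern; members and lists were chosen with earlier results of these data known. No arrays were identical (highest correlation 0.9963). Alternatives were median centring, quantile normalization, a filter on dim probe sets, other arrays in the fit, an intensity trend, replicate or array-letter terms, arrays left out, and the other temperature label.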

Additional observations from a re-analysis of the deposited data

Results flagged for a closer look

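In the 5 d flies at 2g in the centrifuge, the second of the 4 arrays stood far above the others: AttD read 9.98, with a gap to the next array of 0.979 of the group's range, Drs read 13.38 (0.932 of the range) and edin read 11.06 (0.847 of the range), each over Dixon's 95% critical value of 0.829 for 4 values. The test was made on 15 sets of 4 values, and chance alone flags about 1 in 20. The flagged genes were read on the same array, so that the flags are not independent. For AttD the other arrays of the group were at background, where the critical value need not hold. On the same array DptB (11.96) and Mtk (12.98) were also the highest of the group without passing the critical value. No pair of comparisons, among 25, differed between experiments or groups in the way that would have marked it for a closer look.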

How the results depend on the processing

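Of the counts of members called, 329 values under the alternatives were within 1.5 times the main count and 20 were not; of the 47 single-gene differences that the report turns on, with 673 values, 599 kept their direction and side of the threshold, 39 passed it, 7 missed it and 28 turned sign. Over all 120 differences of the 5 genes, 111 of 1738 values turned sign, 0 of them among the 10 differences that were called. Between the RPM sex labels at 1g the count was 1, against 3 with array median centring, 2 with quantile normalization and 1 to 3 with an array left out. Mtk turned to 0.24 with centring and ran from -1.24 to 0.63 with an array left out, and DptB from -0.44 to 1.18. For 80 h in the magnet against the outside controls the count was 0 at both 0g* and 1g*, against 3 each with the replicate block, 3 each with the array letter and 0 to 3 each with an array left out. Those called were DptB, Mtk and edin in each case. Drs ran there from -0.23 to 0.56 at 0g*. At 20 d, 2g against 1g turned to 0.66 for AttD, 0.72 for DptB, 0.71 for edin and 0.86 for Mtk with the replicate block. With an array left out it ran from -0.43 to 0.058 for AttD, -0.41 to 0.07 for DptB, -0.35 to 0.0075 for edin and -0.15 to 0.43 for Drs. The change of the age difference with 2g ran from -1.53 to 2.27 for AttD, -0.88 to 2.40 for DptB, -1.01 to 2.34 for edin, -0.90 to 2.23 for Mtk and -0.29 to 0.28 for Drs with an array left out; none of these was called. For age at 1g the count was 1, against 2 with quantile normalization, with the filter on dim probe sets or with the intensity trend, 3 with only the compared groups or all arrays in the fit or with the array letter, and 0 to 3 with an array left out. At 1g-rot the count was 4 (3 to 4 with an array left out) and at 2g 4 (3 to 5). The causes were not tested, other than that fewer arrays were fitted.

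The replicate numbers shared by the titles were taken as a block in an alternative only: over the comparisons with 3 or more pairs the correlation of same-numbered deviations ran from -0.163 to 0.469 and never exceeded 0.1 for every pair. The replicate block changed no other call of a member and left the count for age at 4 (2g), 4 (1g-rot) and 1 (1g). It sets the outside control of 80 h whose number no magnet array shares aside, as leaving that array out does. With the array whose labels disagree on temperature moved to 14C or left out, no member was called between 24C and 14C. Each of the 5 genes had 1 probe set, so averaging probe sets gave nothing to compare. The few arrays per group, 2 to 4, limit the precision, and the spread of the young flies widens every interval in the centrifuge, where both ages share a variance.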
